A study of Rattus norvegicus with 24 samples.

Results

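The genes described here act in the outer segment of rod photoreceptors, the part of the cell that captures light. There were 9 of them (Sag, Pdc, Rcvrn, Grk1, Cnga1, Prph2, Gnb1, Gucy2d and Gucy2f), chosen by name. Probes were assigned to them through the RefSeq accession listed with each probe. Of the 9 genes 8 had a probe named this way, and together they had 9 of the 33849 rat probes, since Gucy2f had 2. No probe was named for Gnb1, so it has no value here.

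In a rod, light starts a cascade that activates the G protein transducin and through it a phosphodiesterase that breaks down cyclic GMP. The fall of cyclic GMP closes the cation channel of the outer segment membrane. Recovery needs a receptor kinase and arrestin, which quench the start of the cascade, and guanylate cyclases, which rebuild cyclic GMP. Rods make up most cells of the rat retina, and RNAs of this machinery are among its most abundant.

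RNA came from retinas of male Sprague Dawley rats, and the labels give 24 CodeLink arrays, taken here as 1 per rat. The study's animal list and a figure legend give fewer rats than arrays, which the sources used here do not settle. Diabetes had been induced by intraperitoneal streptozotocin (STZ), a toxin of pancreatic beta cells, and control rats had received the citrate vehicle. The groups were 1M Control, 1M STZ, 3M Control and 3M STZ, harvested 1 or 3 months after injection, with 6 arrays each. No rat received insulin, the STZ groups held only rats above a blood glucose limit, and age was not given by the labels. The 1 month and 3 month animals were separate sets, so duration and animal set cannot be told apart. The runs of the arrays are not given in the sources used here. A whole retina holds many cell types, and fewer rods and less RNA per rod cannot be told apart.

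CodeLink arrays carry 1 spot of a short DNA per probe, and its value is the brightness of the spot after background subtraction, with no second channel. Here a scaled level is that intensity divided by the median of the rat probes on the same array, so 1 is the array's middle probe. The rank of a probe is its place among the 33849 rat probes of 1 array, with 1 the brightest. The median intensity of an array ranged from 124 to 359.6, and from 125 to 164 in the 3M STZ group, the dimmest group. 3M STZ array 1 stood apart (the 10th brightest probe on it had an intensity of 45671, against 17404 to 28616 elsewhere). 3M Control array 2 was set beside it at the other end, with the lowest such intensity (17404). The next lowest was 20833, on 1M Control array 6. The fit without both arrays was added after the data were seen. Some results that rest on these arrays are also given without them, and others are not. Levels of different probes are not compared as RNA amounts, because each probe binds with its own efficiency.

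Upstream sequence is shown for the 3 brightest members, and for Gucy2f, the dimmest, as a contrast. Each line holds the 250 bases before the transcript start used in the RefSeq table (GRCr8), from 5′ to 3′ on the strand of the gene. For Sag and Pdc that start lies inside the outer bounds of the gene. Capitals mark exact matches, on either strand, to TAATCC, the core bound by the photoreceptor factor CRX, or to TGCTGA, a core bound by the rod factor NRL. Sag lay at chr9:95916947-95917196 (plus strand), Pdc at chr13:64908057-64908306 (plus strand), Prph2 at chr9:21579075-21579324 (minus strand) and Gucy2f at chrX:110605018-110605267 (minus strand).
Sag: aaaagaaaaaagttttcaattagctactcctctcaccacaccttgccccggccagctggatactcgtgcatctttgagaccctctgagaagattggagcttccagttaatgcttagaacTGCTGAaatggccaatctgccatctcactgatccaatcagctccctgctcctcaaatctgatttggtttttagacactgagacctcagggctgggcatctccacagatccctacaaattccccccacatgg
Prph2: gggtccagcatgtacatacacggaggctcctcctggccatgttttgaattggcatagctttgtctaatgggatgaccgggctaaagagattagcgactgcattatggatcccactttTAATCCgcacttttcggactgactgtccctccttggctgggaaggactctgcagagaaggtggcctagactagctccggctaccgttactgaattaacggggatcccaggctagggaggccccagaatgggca
Pdc: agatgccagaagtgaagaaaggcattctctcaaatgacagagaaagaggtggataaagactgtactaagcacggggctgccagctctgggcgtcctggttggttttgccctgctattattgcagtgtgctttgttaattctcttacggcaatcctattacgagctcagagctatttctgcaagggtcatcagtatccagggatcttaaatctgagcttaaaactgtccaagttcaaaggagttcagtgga
Gucy2f: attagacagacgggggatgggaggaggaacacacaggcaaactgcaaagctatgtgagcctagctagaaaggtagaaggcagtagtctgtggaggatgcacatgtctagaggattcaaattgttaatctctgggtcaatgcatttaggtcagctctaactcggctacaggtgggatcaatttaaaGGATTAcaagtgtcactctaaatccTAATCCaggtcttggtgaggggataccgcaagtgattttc

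The CRX letters stood once before Prph2, starting 133 bases before the transcript start, and at 2 places before Gucy2f, starting 65 and 40 bases before it. The NRL letters stood once, 131 bases before Sag. Of the 7 members with an upstream sequence in the table used, 2 held the CRX letters and 1 the NRL letters. Among all 33469 sequences of this length, 6.34% held the CRX letters and 15.1% the NRL letters. A match is a description of the letters only, and no factor binding was measured.

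The structural protein of the disc rim was among the brightest probes on the array. Prph2 (peripherin 2, probe GE20121, gene at chr9:21563770-21579074) shapes the rims of the membrane discs. Its scaled level lay between 78.7 and 137 (median 90.8) in 1M Control and between 91.4 and 144 (median 111) in 1M STZ. It lay between 58.1 and 134 (median 96.7) in 3M Control and between 118 and 175 (median 133) in 3M STZ. The 3M STZ arrays lay in the upper part of the control range and 1 of them lay above all controls. The rank of Prph2 ran from 5 to 84 over the 24 arrays, with a median of 12.5, and 84 was 3M STZ array 1.

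The channel subunit was the dimmest of the 6 bright members. Cnga1 (probe GE21072, chr14:35920948-35959065) encodes the alpha subunit of the rod cyclic GMP-gated channel, through which the dark current flows. Its scaled level lay between 10.7 and 30.2 (median 22.6) in 1M Control, 9.71 and 19.2 (median 14.9) in 1M STZ, 6.32 and 17.6 (median 12.7) in 3M Control and 10.3 and 18.3 (median 15.4) in 3M STZ. The groups overlapped at both times, with the highest levels in 1M Control. Its rank ran from 249 to 2509 with a median of 974.5.

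The membrane guanylate cyclases of photoreceptors, Gucy2d and Gucy2f, were at the middle of the array or below it, unlike the other members. Gucy2d (probe GE21729, chr10:54453753-54478639) had a scaled level between 0.86 and 1.09 (median 0.88) in 1M Control, 0.65 and 1.30 (median 0.74) in 1M STZ, 0.87 and 1.19 (median 1.01) in 3M Control and 0.64 and 0.87 (median 0.80) in 3M STZ. Of the 3M STZ arrays 5 lay below all 3M Control arrays. On 5 of the 12 arrays of 1 month, and on 0 of the 12 of 3 months, Gucy2d was above the 95th percentile of the 62 probes for bacterial genes, which was exceeded on all 24 arrays by Sag, Pdc, Prph2, Rcvrn, Grk1 and Cnga1. Whether any bacterial RNA was added to the samples is not given in the sources used here, so these probes are an uncertain measure of background.

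Gucy2f (chrX:110507183-110605017) was read by 2 probes. Probe GE21730, the brighter of them on average, lay between 0.46 and 0.68 (median 0.52) in 1M Control, 0.43 and 0.59 (median 0.56) in 1M STZ, 0.85 and 1.42 (median 0.97) in 3M Control and 0.66 and 0.87 (median 0.78) in 3M STZ. Probe GE1258293 lay between 0.45 and 0.65 (median 0.53), 0.34 and 0.55 (median 0.44), 0.51 and 1.19 (median 1.02) and 0.64 and 1.2 (median 0.81) in the same groups. Neither Gucy2f probe exceeded the 95th percentile of the bacterial probes on any array. After the group means were removed, the quantile-normalized values of the 2 probes had a Pearson r of -0.44 and a Spearman correlation of -0.16 over the 24 arrays. On 3M Control array 2 the probes were at 0.80 (GE21730) and -1.51 (GE1258293). The other 3M Control arrays lay at -0.44 to 0.13 and at -0.05 to 0.32. A correlation without that array is not given, so whether the probes rise and fall together is not settled.

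The scaled levels of the bacterial probes bear on any reading of the cyclases. Their median was 0.113 in 1M Control and 0.0862 in 1M STZ, but 0.683 in 3M Control and 0.557 in 3M STZ, so the dim end of the 3 month arrays lay closer to the middle of the array. Of the 62 bacterial probes, the median array had 57.5, 58, 54.5 and 45.5 dimmer than Gucy2d in 1M Control, 1M STZ, 3M Control and 3M STZ. The part of this shift in the cyclase values was not tested.

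Among the proteins that end the light response, Grk1 (G protein-coupled receptor kinase 1, probe GE1109706, chr16:82821184-82837971) phosphorylates the light-activated receptor. Its scaled level lay between 12.1 and 25.2 (median 20.5) in 1M Control, 15.9 and 27.2 (median 20.6) in 1M STZ, 18.3 and 35.7 (median 26.5) in 3M Control and 13.2 and 26.2 (median 21.7) in 3M STZ. The scaled levels overlapped between all groups. The ranks did not: Grk1 was at 65 to 196 (median 166) on the 3M Control arrays, and at 440 to 1410 (median 574.5) in 3M STZ. On the 1 month arrays it was at 366 to 1546, so the 3M Control arrays stood apart from all 3 other groups.

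Sag (S-antigen or rod arrestin, probe GE20123, chr9:95915640-95956641), which binds the phosphorylated receptor and stops its signal, was the brightest member. Its scaled level lay between 87.4 and 221 (median 104) in 1M Control, 89.4 and 153 (median 144) in 1M STZ, 77.0 and 163 (median 120) in 3M Control and 137 and 221 (median 160) in 3M STZ. Of the 3M STZ arrays 3 lay above all controls of that time. Its rank ran from 2 to 77 with a median of 6, and without 3M STZ array 1 the 3M STZ arrays were at 4 to 11.

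Rcvrn (recoverin, probe GE1252429, chr10:52887667-52895413), a calcium sensor that restrains Grk1 in the dark, lay between 43.0 and 66.4 (median 61.6) in 1M Control, 51.5 and 64.2 (median 57.5) in 1M STZ, 22 and 56.2 (median 44.4) in 3M Control and 40.1 and 63.3 (median 49.7) in 3M STZ. The scaled levels overlapped at both times. Its rank was 49 to 62 (median 58) in 3M Control and 72 to 321 (median 90) in 3M STZ, without overlap.

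Pdc (phosducin, probe GE1285449, chr13:64847366-64921865), which binds the beta-gamma subunits of transducin, lay between 65.6 and 126 (median 76.9) in 1M Control, 79.8 and 112 (median 92.7) in 1M STZ, 38.1 and 92.2 (median 74.1) in 3M Control and 91.1 and 116 (median 103) in 3M STZ. Of the 3M STZ arrays 5 lay above all 3M Control arrays. Its rank ran from 16 to 123 with a median of 23.

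**Figure D1:**
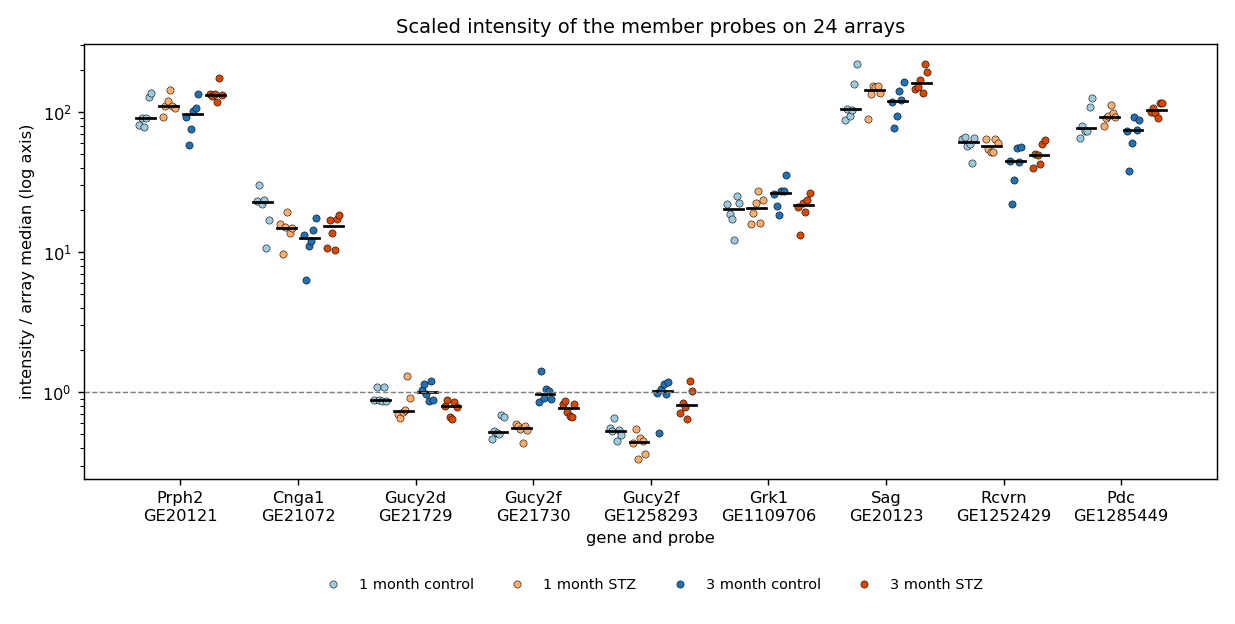
Scaled intensity (log axis, 1 is the array median, dashed line) of each member probe, 1 point per array and a black bar at the median of the 6 arrays of a group. Prph2, Sag, Pdc, Rcvrn, Grk1 and Cnga1 lay above the array median on all 24 arrays, and Gucy2d and the Gucy2f probes around or below it.

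The order of the median ranks was Sag, Prph2, Pdc, Rcvrn, Grk1, Cnga1, Gucy2d (18193) and the Gucy2f probes (20654.5 and 21250.5). The ranges of neighbors in that order overlapped in every case except between Cnga1, at 2509 or brighter, and Gucy2d, at 14403 or dimmer.

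**Figure D2:**
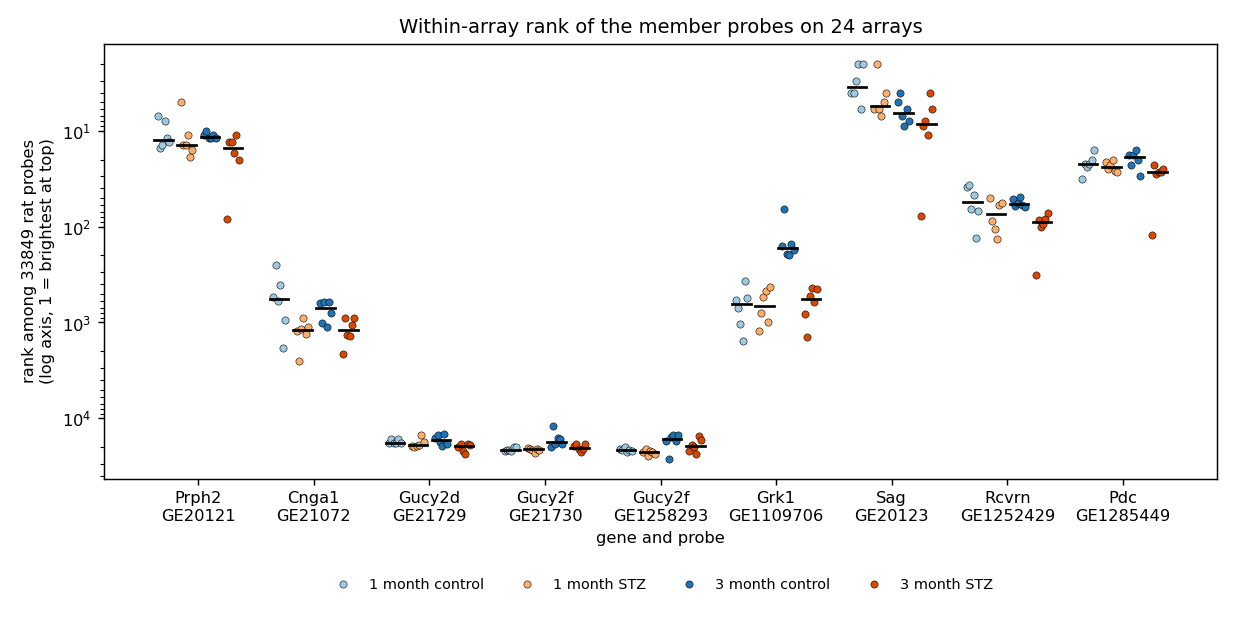
Rank of each member probe within its array among 33849 rat probes (log axis, brightest at the top), 1 point per array with a bar at the group median. At 3 months the control and STZ ranks of Grk1 (65 to 196 and 440 to 1410) and of Rcvrn (49 to 62 and 72 to 321) did not overlap, and the lone low points of Sag, Prph2, Pdc and Rcvrn in 3M STZ are array 1.

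The brightest members followed the brightness of their arrays less than dim ones did. Before scaling, the intensity of Sag ranged from 22044 to 31455, which is 1.43-fold, while the median of the arrays ranged 2.91-fold. After division by that median the range of Sag was 2.87-fold. The intensity of Prph2 ranged 1.73-fold before scaling and 3.01-fold after it, whereas that of Gucy2d ranged 3.73-fold before and 2.03-fold after.

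No member was the brightest spot of an array, and Sag was among the 77 brightest probes on all 24 arrays, all of them labelled retina. Sag reached 42.4% to 96.0% (median 84.7%) of the highest intensity on its array and was within 10% of it on 5 arrays. Prph2 reached a median of 65.7% and Pdc of 51.6%. On each array 1 to 4 probes lay within 5% of the highest, so no large group of probes shared a top value. The scanner's upper limit is not given in the sources used here, and how far the brightest spots were compressed was not tested.

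**Figure D3:**
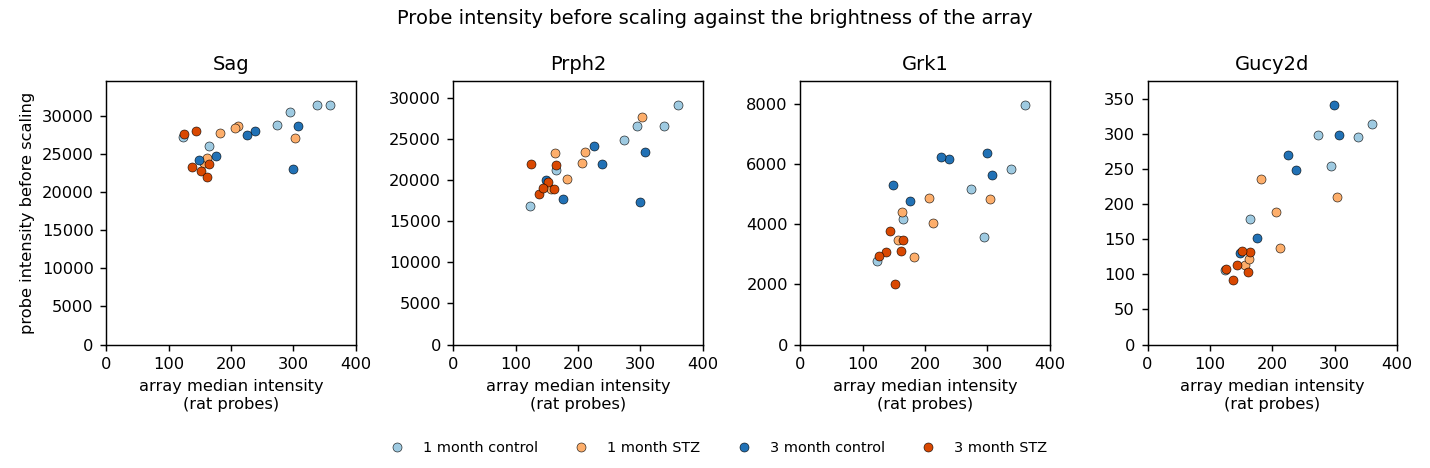
Intensity before scaling of Sag, Prph2, Grk1 and Gucy2d (vertical axes from 0) against the array's median intensity over rat probes, 1 point per array. Sag changed 1.43-fold over a 2.91-fold range of array brightness and Gucy2d 3.73-fold, and the 3M STZ arrays all lay at the dim end.

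At 1 month no member differed between diabetic and control retinas by limma, which fits a linear model to each tested probe and shares variance information among them. Calls needed a 1.2-fold difference or more and a p under 0.05 after Benjamini-Hochberg adjustment over all tested probes. This held for 0 of 8 members (0 at an unadjusted p under 0.05) and for 0.00908% of the 22025 tested probes (2 probes, with 927 at an unadjusted p under 0.05). The largest difference was in Cnga1, at -0.48 on the log2 scale (SE 0.23, n = 6 per group), with an adjusted p of 0.9999 in limma. The other members lay between -0.20 and 0.19, and the dimmer Gucy2f probe at -0.31 (SE 0.18). In a fit that weighted arrays by their quality Cnga1 was called lower, at -0.72 (limma adjusted p = 0.0307), as 1 of 360 called probes.

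At 3 months, Prph2, Pdc and Sag were called higher and Gucy2d and Gucy2f lower on scaled levels, 5 of 8 members in all. Of all tested probes 54.1% were called, split into 50.5% higher and 3.55% lower. The median difference of all tested probes was 0.44. Pdc was higher by 0.61 on the log2 scale, or 1.53-fold (SE 0.18, limma adjusted p = 0.00812). Prph2 was higher by 0.57, or 1.48-fold (SE 0.18, limma adjusted p = 0.0107), and Sag by 0.53, or 1.45-fold (SE 0.21, limma adjusted p = 0.0356). The differences of Sag, Prph2 and Pdc lay 0.09, 0.12 and 0.16 above the median of all probes, less than 1 SE in each case.

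The measured difference of Gucy2d was -0.40 (SE 0.15, limma adjusted p = 0.0307) and that of Gucy2f (probe GE21730) -0.41 (SE 0.14, limma adjusted p = 0.0181). Neither exceeded the 95th percentile of the bacterial probes on any 3 month array, so no fold is given, and the median of the bacterial probes was itself lower in 3M STZ (0.557 against 0.683). The other Gucy2f probe had a difference of -0.15 (SE 0.18) and was not called. Rcvrn (0.30, SE 0.18), Cnga1 (0.26, SE 0.23) and Grk1 (-0.31, SE 0.19) were not called, and Grk1 was the only bright member with a mean below that of the controls. Without 3M Control array 2 Sag (0.41, limma adjusted p = 0.108) and Gucy2d (-0.36, limma adjusted p = 0.0594) were no longer called, and without it and 3M STZ array 1 the calls that remained were Pdc (0.45) and Prph2 (0.44).

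The size of the 3 month difference followed the brightness of a probe across the whole array. Tested probes were split by mean level into 10 classes of equal size. In the brightest class, which holds Sag, Prph2, Pdc, Rcvrn, Grk1 and Cnga1, the median difference was 0.63 and 81.6% were called higher. In the dimmest class, which holds both Gucy2f probes, it was -0.0151. Among the 100 brightest probes 92 were called higher, with a median of 0.64. Within the brightest class, Pdc (0.61), Prph2 (0.57) and Sag (0.53) lay between the 25th percentile of 0.51 and the median. Grk1, Cnga1 and Rcvrn lay below that percentile.

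**Figure D4:**
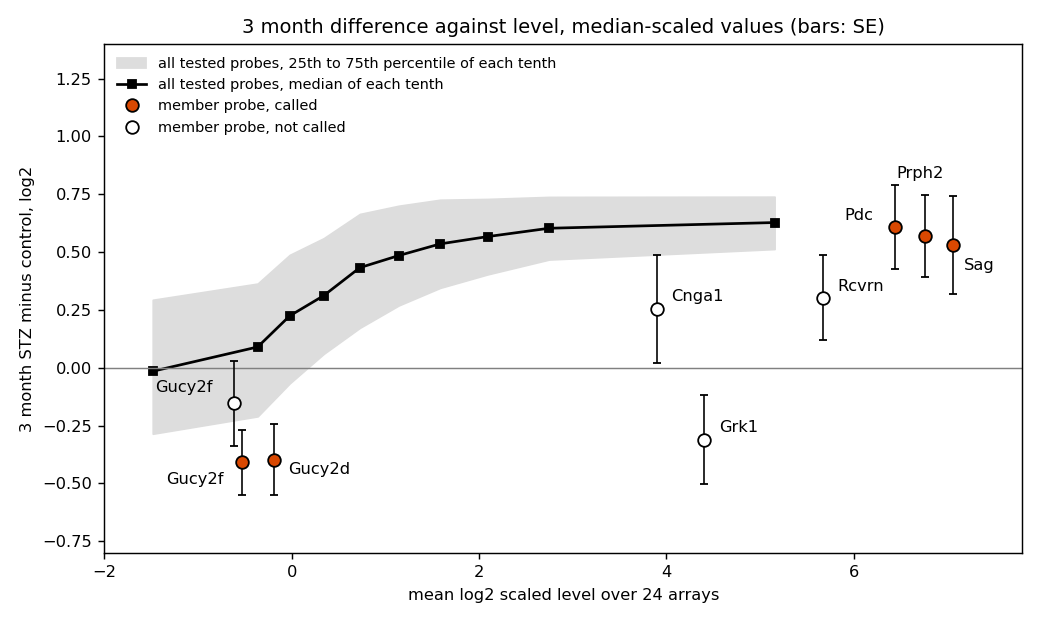
Difference between 3M STZ and 3M Control (log2, median-scaled) of each member probe, with its SE, against its mean log2 scaled level over 24 arrays. The black line and gray band give the median and the 25th to 75th percentile of all tested probes in 10 classes of level, drawn at the middle of each class. The line rises from -0.0151 to 0.63. Pdc, Prph2 and Sag lie between the 25th percentile and the median of the brightest class, and Grk1 lies below zero.

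Quantile normalization, which gives all arrays the same distribution, turned the sign of 5 of the 6 bright members, all but Grk1, which was negative on both scales. All 8 members then had negative differences at 3 months and 4 were called lower. The median was 0.16 over all tested probes, -0.00746 in the brightest class and -0.20 among the 100 brightest probes. Of all probes 31.5% were then called, 24.6% higher and 6.92% lower. These were Grk1 (-1.05, SE 0.19, limma adjusted p = 0.000176), Gucy2d (-0.53, SE 0.16), Gucy2f (-0.51, SE 0.16) and Rcvrn (-0.46, SE 0.17, limma adjusted p = 0.0395). Sag (-0.27), Pdc (-0.30), Prph2 (-0.32) and Cnga1 (-0.36) were not called. On 3M STZ array 1 the quantile-normalized levels of Sag, Pdc, Prph2 and Rcvrn were 5.67, 5.36, 5.61 and 4.68. The other 3M STZ arrays lay at 6.88 to 7.16, 6.39 to 6.48, 6.56 to 6.88 and 5.50 to 5.71. The negative differences of these genes thus rest in part on array 1, and fits without it are not given on this scale. The deposited normalized value gave the same 5 calls as the scaled level, where 11055 of all 22025 tested probes were called higher and 787 lower. After subtraction of an array's own 5th percentile 5 members were positive and 3 negative. Of these 2 were called higher and 2 lower, against 10502 and 1001 of all tested probes.

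With no scaling at all, Sag, Pdc and Prph2 had differences of -0.084, -0.00681 and -0.0468. Grk1 (-0.93, SE 0.23), Gucy2d (-1.01, SE 0.28) and Gucy2f (-1.03, SE 0.26) were called lower, against 4.06% of all probes, on arrays that were dimmer as a whole. The intensity of Grk1 lay between 4765 and 6364 (median 5892) in 3M Control and between 2014 and 3783 (median 3082) in 3M STZ, without overlap. Before scaling 2 member probes (Grk1 and Gucy2f GE1258293) lay wholly lower in 3M STZ, against 2.83% of all tested probes. Gucy2d and Gucy2f (GE21730) passed the test with a negative sign on all 3 scales, at levels within the range of the bacterial probes. Grk1 had a negative difference on all 3 and was called on 2.

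**Figure D5:**
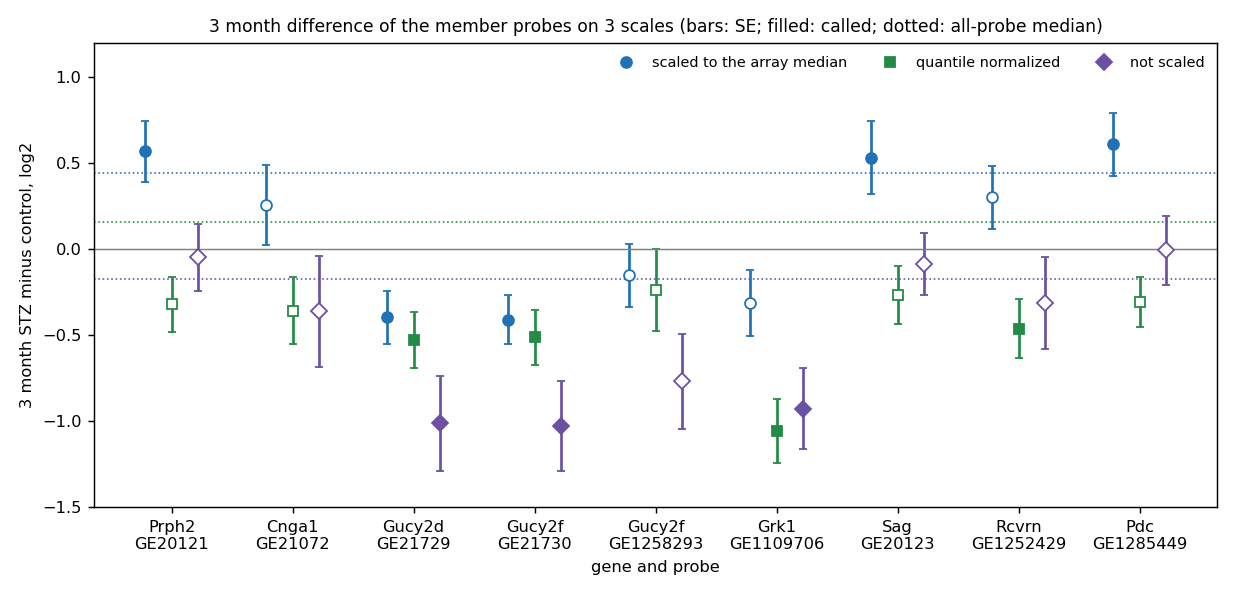
Difference between 3M STZ and 3M Control (log2) of each member probe with its SE on 3 scales, with filled symbols for called probes and dotted lines for the median of all tested probes on that scale (0.44, 0.16 and -0.17). Prph2, Sag and Pdc change sign between the scaled and the quantile-normalized values, while Gucy2d, both Gucy2f probes and Grk1 are below zero on all 3.

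The rank does not depend on how an array is scaled. At 3 months the mean rank of all 9 member probes was dimmer in STZ. The share of all tested probes with a dimmer mean rank was not counted. Their median difference in percentile rank was 2.05 points, while the 100 brightest probes had a median of -0.20 on quantile-normalized values. Whether the count is particular to the members was not tested. By a two-sided exact permutation test of the percentile rank (6 against 6 arrays, 18 tests over both times, smallest possible p 0.00216), Grk1 and Rcvrn reached p = 0.00216 each, with no overlap between the groups. Over all tested probes the 3M STZ arrays lay wholly below the controls in rank for 1.58% and wholly above for 6.86%. In scaled level 0 member probes had separate groups at either time, against 0.545% of all probes at 1 month and 10.2% at 3 months.

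The p values were 0.0216 for Gucy2d, 0.026 for Gucy2f (GE21730), Cnga1 and Prph2, 0.0411 for Pdc, 0.262 for Sag and 0.502 for the other Gucy2f probe in the same exact permutation test. At 1 month they ran from 0.0584 to 0.807, and 0 member probes had separate groups, against 0.241% of all probes wholly lower and 0.39% wholly higher. Without 3M Control array 2 and 3M STZ array 1, Grk1 (151 to 196 against 440 to 1410) and Rcvrn (49 to 62 against 72 to 100) still did not overlap (exact permutation p = 0.00794 each, the smallest 5 against 5 arrays allow), while Prph2 (p = 0.0952), Pdc (p = 0.0873) and Gucy2d (p = 0.0794) were above 0.05 in that exact permutation test. In limma fitted to percentile ranks of all probes, Gucy2d (-9.96 points, adjusted p = 0.0135) and Gucy2f (-9.61 points, adjusted p = 0.0134) were called, against 6.54% of all probes called lower. Grk1 (-1.64 points, adjusted p = 0.1003) and Rcvrn (-0.21 points, adjusted p = 0.811) were not called.

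The change of the STZ effect between 1 and 3 months was tested as an interaction. It was called for 0 of 8 members by limma (1, Cnga1, at an unadjusted p under 0.05), against 15.5% of all tested probes. With quantile normalization Grk1 was called, with a change of -1.09 (SE 0.26, limma adjusted p = 0.0116), against 10.8% of all probes. Array weights called Grk1, Cnga1 and Gucy2f, against 46.9% of all probes. An effect called at 3 months and not at 1 month is therefore not shown to differ between the times for Sag, Pdc, Prph2 and Gucy2d. The same holds for Gucy2f on scaled levels without array weights (-0.37, SE 0.20, limma adjusted p = 0.153).

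Between the control groups, Cnga1 (-0.76, SE 0.23, limma adjusted p = 0.00556) and Rcvrn (-0.53, SE 0.18, limma adjusted p = 0.0122) were lower at 3 months than at 1 month and Gucy2f was higher (0.87, SE 0.14, limma adjusted p = 6.1e-06 for probe GE21730). Of all probes 68.8% were called in this comparison, 13.2% higher and 55.6% lower, with a median of -0.52. With quantile normalization Cnga1 (-0.15) and Rcvrn (0.02) were not called, while Gucy2f (0.65) and Grk1 (1.13, SE 0.19) were called higher, against 21.2% of all probes. Both Gucy2f probes were called higher in 3M Control on scaled, quantile-normalized and unscaled values, beside the rise of the bacterial probes given above. Their medians (GE21730, then GE1258293) were 0.52 and 0.53 in 1M Control, below the filter limit of 0.554, and 0.97 and 1.02 in 3M Control. A filter over all arrays can thus favor dim probes that were higher at 3 months. With no filter Gucy2f was called higher as well.

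Sag, Pdc and Prph2 varied together between rats of the same group on scaled levels (Pearson r of 0.89 to 0.91 over 24 arrays after group means were removed). Scaled values of bright probes share the division by the array median, and on intensities before scaling r was 0.59 to 0.82. On quantile-normalized values r for Sag and Pdc was 0.87 with a Spearman correlation of 0.45, and without 3M STZ array 1 r was -0.05 for Sag and Pdc, 0.0392 for Sag and Prph2 and -0.0205 for Pdc and Prph2. The probes outside the member genes whose quantile-normalized values were most like the members' mean were Ldha (r 0.88), Aipl1 (0.87), Ssbp3 (0.86), Iapp (0.82) and Rps27a (0.78) over 24 arrays, and without 3M STZ array 1 these were 0.45, 0.54, 0.58, 0.35 and 0.17.

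Other genes of the light response were measured by 10 tested probes of a list of 21 genes, and at 3 months 6 of them were called higher on scaled levels and 0 were called lower, against 50.5% and 3.55% of all probes. Their median difference was 0.59, against 0.44 for all probes. Calm3, a calmodulin gene, had the largest difference (1.44, SE 0.24). Gucy2e was called higher (1.14, SE 0.24), and in the gene table used here that symbol is the olfactory cyclase and not a photoreceptor one. With quantile normalization 3 were called higher and 2 lower, against 24.6% and 6.92% of all probes. None of the 10 was called at 1 month.

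Of 26 outer segment and photoreceptor structure genes 9 were tested, and 4 were called higher and 0 lower. Their median difference was 0.41. Retsat (0.93), a retinol saturase, was the highest and Impg1 (-0.33, not called), a matrix proteoglycan around photoreceptors, the lowest. Of the photoreceptor transcription factors, Neurod1 was called higher (0.62) and Crx was not called (-0.04). Of 3 cone genes 2 were called higher, from 0.75 in Opn1sw, the short-wavelength opsin, to 0.34 in Thrb, a nuclear receptor of cones. With quantile normalization the medians of the 4 lists were between -0.19 and 0.20.

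Many markers of the other retinal cells were also called higher on scaled levels at 3 months, in a comparison where 50.5% of all probes were. They were 5 of 8 for Mueller glia (from Vim at 1.53 to Kcnj10 at -0.01), 3 of 4 for microglia and leukocytes (from Cd74 at 1.36 to Aif1 at 0.21), 6 of 9 for amacrine and horizontal cells (from Pax6 at 0.74 to Onecut1, called lower at -0.71), 4 of 6 for ganglion cells (from Stmn2 at 0.72 to Nefl at 0.32), 2 of 2 for bipolar cells (Grik1 0.72, Grm6 0.67) and 2 of 2 for endothelium (Kdr 0.59, Flt1 0.34). Of the erythrocyte genes 1 of 2 was called higher (Slc4a1 0.43, Alas2 -0.34), as was 1 of 2 pineal genes that photoreceptors also express (Aanat 0.96, Asmt 0.40). Of the pigment epithelium genes 0 of 2 were called (Ttr 0.10, Rpe65 -0.10).

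The summed scaled level of the 8 Mueller glia markers lay between 65.7 and 186 in 3M Control and between 178 and 241 in 3M STZ, and that of the 4 microglia and leukocyte markers between 5.27 and 8.69 and between 8.57 and 13.4. The 2 pigment epithelium markers summed to 2.43 to 12.9 in 3M Control and 2.32 to 97.2 in 3M STZ, where 97.2 was array 1 and the next highest was 8.50. With quantile normalization the median of the microglia and leukocyte list was 1.00 and that of the Mueller glia list was 0.06. The part of these cells in the members' values was not tested.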

How the data were processed

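Retinal RNA was measured on 24 CodeLink arrays, 6 per group, taken as separate rats. The deposited intensity of a spot was, per the study's methods, read with the CodeLink software. Those methods name exclusion of defective spots, subtraction of background and a normalization within each array. A further column deposited by the authors holds the spot intensity over a near-median constant of its array. Precision is limited by how many arrays there are. Of all values 3 were missing, and quality flags were left aside.

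Intensities were divided by the median of the 33849 rat probes of the array, raised to 0.01 where lower, and log2 was taken. To be tested, a rat probe needed 4 values per group or more and a median scaled intensity over 0.554, the 35th percentile of all probes. There were 22025 such probes, among them all 9 member probes. The groups were compared in 1 model with limma 3.58.1 in R 4.3.3, with Benjamini-Hochberg adjustment over all tested probes. Single ranks were compared by two-sided exact permutation tests in scipy 1.17.1. The fit was tested on simulated data. The interaction had no fold limit. P-values measure the spread between rats of 1 set per group. Symbols, gene positions and upstream sequences came from RefSeq tables (GRCr8) through the probes' accessions, which named 4674 probes for 4012 genes. Where a probe lies in its transcript is not given in the sources used here, and Rcvrn and Grk1 had no entry in the upstream table.

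The genes named are all members with each probe (the tested probe with the highest mean level stands for a gene), the extremes of each list at 3 months, and the 5 probes most like the members' mean. The value of 1 list gene is not reported here, and the counts and medians include it. Gucy2e and the list genes beyond those extremes were named after their values were seen. The members and all lists were chosen with earlier results of these data known. Alternatives were quantile normalization, also within each time point, the deposited normalized value, subtraction of the 5th percentile, percentile ranks, no filter, a floor of 0.1, no fold limit, the methods' test (unequal variances, p under 0.01, with and without adjustment), separate models, a replicate block, array spread as a covariate, array weights, the other Gucy2f probe and each array left out. Intensities with no scaling, and the fit without both arrays that stood apart, were added after seeing the data.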

Additional observations from a re-analysis of the deposited data

Results flagged for a closer look

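In 5 of 36 sets (9 member probes in 4 groups) the highest or lowest array was set apart from the other 5 arrays of its group in scaled level by a gap above Dixon's critical share of the group's range. Chance gives such a gap in about 1 in 20 sets. The log2 scaled level of Sag was 6.48 on 1M STZ array 1, with the others at 7.08 to 7.26. Rcvrn was at 5.43 on 1M Control array 5, with the others at 5.83 to 6.05. Prph2 was at 7.45 on 3M STZ array 5, with the others at 6.88 to 7.06.

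The other gaps were in Gucy2f, 1 in each probe. Probe GE21730 was at -1.21 on 1M STZ array 4, with the others at -0.89 to -0.76, and probe GE1258293 at -0.97 on 3M Control array 2, with the others at -0.03 to 0.25. That array is 1 of the pair that stood apart as a whole.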

How the results depend on the processing

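At 1 month 0 members were called in the model as reported, and 1 with array weights (Cnga1), where 360 of 22025 tested probes were called. At 3 months 5 were called, and 2 with quantile normalization within each time point (Rcvrn, Grk1), 2 on percentile ranks, 3 with no scaling, 2 without both arrays that stood apart, 1 by the methods' test (Gucy2d), 0 by that test after adjustment and 0 with array spread as a covariate. In the same order, the calls among all 22025 tested probes were 5536, 6753, 970, 8257, 3722, 1921 and 0 (1934 at an unadjusted p under 0.05 with the covariate in limma), against 11911 as reported. Leaving out each array gave 3 to 5 at 3 months, 0 at 1 month, 0 to 1 for the interaction (Cnga1 without 3M Control array 6) and 3 to 4 between the controls. The 3 arose without 3M Control array 2 and without 3M STZ array 3, where Sag and Gucy2d were not called (Sag adjusted p 0.108 and 0.0557 by limma). With 1 array left out, the calls among all tested probes ran from 8734 to 14055 at 3 months and from 1 to 5 at 1 month. They ran from 759 to 9230 for the interaction (9230 without 3M Control array 6) and from 14342 to 16047 between the controls. The interaction was called for 0 members, and for 1 with quantile normalization in both forms (Grk1) and 3 with array weights, where 10325 of all tested probes were called. Between the controls 3 were called, and 0 with array spread as a covariate, where 269 of all tested probes were called, against 15162. The cause of these moves was not tested.

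Signs turned as follows on the log2 scale, with quantile normalization, quantile normalization within each time point, percentile ranks (in points) and no scaling in that order. At 3 months Sag was at -0.27, -0.32, -0.0374 and -0.084, Pdc at -0.30, -0.34, -0.063 and -0.00681, Prph2 at -0.32, -0.39, -0.0443 and -0.0468, Rcvrn at -0.46, -0.51, -0.205 and -0.31, and Cnga1 at -0.36, -0.37, -1.44 and -0.36. Without both arrays that stood apart, the percentile rank differences at 3 months were smaller. They were -0.00177 for Sag, -0.0165 for Pdc, -0.00945 for Prph2, -0.0928 for Rcvrn and -1.06 for Cnga1. With array spread as a covariate Rcvrn was at -0.26 and Cnga1 at -0.50 at 3 months. At 1 month Sag was at -0.0743, -0.0658, -0.00443 and -0.13, Pdc at -0.035, -0.0318, -0.00295 and -0.15, and Prph2 at -0.0678, -0.0494, -0.00492 and -0.0898. Grk1 was at -0.20 with no scaling and Gucy2f at 0.0462 with array weights. With 1 array left out, Rcvrn ran from -0.115 to 0.0107, Grk1 from -0.051 to 0.16 and Gucy2f from -0.0887 to 0.0283 at 1 month. Gucy2d, Gucy2f and Grk1 kept a negative sign at 3 months in every alternative run.

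With the replicate number as a block (replicate block) the counts were 0, 5, 0 and 3 for the 1 month, 3 month, interaction and control comparisons, as without it. Deviations of same-numbered arrays correlated at -0.24 to 0.25. No range for differently numbered arrays is given here, so these values cannot decide whether the numbers pair the rats. The dim end of the 3 month arrays limits what Gucy2d and Gucy2f can show, and the unknown upper limit of the scanner what Sag and Prph2 can.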
